A study of Mus musculus with 10 samples.

Results

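The genes described here mark the ciliated cells of the airway lining: Foxj1, Tppp3, Dynlrb2, Rsph1, Tekt1, Tekt4, Hydin and Dnah5. They were chosen by name, as known genes of motile cilia, and all 8 were among the 24059 gene symbols of the count table. Lungs of female C57Bl/6 mice were sequenced after 8 weeks on a high-fat diet rich in menhaden fish oil (FO, 5 mice) or in coconut oil (CO, 5 mice). All mice were 6 weeks old at the start and 14 weeks old at the end, and no genetic change is named for either group. The CO diet also held olive oil, both diets held corn oil and added cholesterol, and there was no group on ordinary chow. RNA came from whole lung flushed with PBS, 1 lung per mouse. The ciliated cells of the airways were therefore only a small part of each sample. Lungs were taken after a test of airway reactivity. In the study's methods that test used pentobarbital anaesthesia and increasing doses of methacholine. The comparison asks whether the diet altered the level of these genes.

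Motile cilia are hair-like projections that beat together and move mucus and trapped particles out of the airways. Each has an axoneme, a ring of doublet microtubules around a central pair, and is driven by dynein motors that pull neighbouring doublets past each other. Foxj1 is the transcription factor that turns on the programme of motile cilia, and factors of the RFX family, which bind a sequence known as the X-box, act with it. Loss of cilium motility in patients leads to primary ciliary dyskinesia, with chronic infection of the airways.

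Promoter sequences show a feature that several of the genes share and that the choice of genes did not use. RefSeq windows on GRCm38.p6, each from 250 bases before to 50 bases after an annotated transcript start, were found for 5 of the 8 genes: Dynlrb2, Tekt1, Tekt4, Hydin and Dnah5. Foxj1, Tppp3 and Rsph1 had no entry in that table. The letters of a paired X-box core, GTTGCNNNGCAAC or GTTGCNNNNGCAAC, stand in a window of 3 of these 5 genes, Hydin, Dynlrb2 and Tekt4. Each pair of arms reads the same on both strands. The 250 bases before the start are printed 5′ to 3′ for these 3 genes, all on the plus strand, with the letters of the paired core in capitals. They cover chr8:110266727-110266976 for Hydin, chr8:116504765-116505014 for Dynlrb2 and chr17:25471340-25471589 for Tekt4. The starts used for Dynlrb2 and Tekt4 lie inside the longer genes annotated by GENCODE. Part of the printed bases of Dynlrb2 lies inside its gene. All those of Tekt4, the core included, lie inside its gene.
Hydin: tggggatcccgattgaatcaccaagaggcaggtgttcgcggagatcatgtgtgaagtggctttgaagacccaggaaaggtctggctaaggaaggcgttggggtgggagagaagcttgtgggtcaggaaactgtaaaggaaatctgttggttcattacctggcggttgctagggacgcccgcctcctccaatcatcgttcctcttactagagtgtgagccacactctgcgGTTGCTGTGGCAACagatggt
Dynlrb2: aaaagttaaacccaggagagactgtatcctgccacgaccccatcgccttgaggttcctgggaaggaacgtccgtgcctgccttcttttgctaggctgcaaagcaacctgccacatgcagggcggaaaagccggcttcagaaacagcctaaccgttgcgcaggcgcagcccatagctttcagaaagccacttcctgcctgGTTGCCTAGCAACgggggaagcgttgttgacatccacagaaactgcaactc
Tekt4: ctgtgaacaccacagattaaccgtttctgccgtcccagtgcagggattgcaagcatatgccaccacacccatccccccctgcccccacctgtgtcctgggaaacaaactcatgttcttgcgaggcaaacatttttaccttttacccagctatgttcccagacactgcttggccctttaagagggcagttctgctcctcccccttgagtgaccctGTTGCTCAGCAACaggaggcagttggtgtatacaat

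The core begins 21 bases before the start of Hydin, where it reads GTTGCTGTGGCAAC. It begins 51 bases before the start of Dynlrb2, as GTTGCCTAGCAAC, and 36 bases before that of Tekt4, as GTTGCTCAGCAAC. Of all 32851 promoter windows of the table, 131 (0.399%) hold a paired core, and counted by gene the number is 120 of 27025 (0.444%). A wider set of motile cilium genes, described with its values further on, holds a paired core in 12 of 134 genes with a window (8.96%), and genes of intraflagellar transport in 1 of 29 (3.45%). In that set the inner arm dynein gene Dnah6 has the letters GTTGCTAAGCAAC 36 bases before its start. A shorter motif, GTTGCC on either strand, overlaps the paired core in Hydin and Dynlrb2. It occurs in a window of 4 of the 5 genes, all but Dnah5, though not in every window of Tekt1. It also occurs in 14.1% of all genes with a window (3821 genes), in 50% of the wider set (67 of 134) and in 44.8% of genes for intraflagellar transport (13 of 29). These motifs were chosen after the sequences had been seen. A match describes the letters only, and neither binding nor activity was measured.

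**Figure D1:**
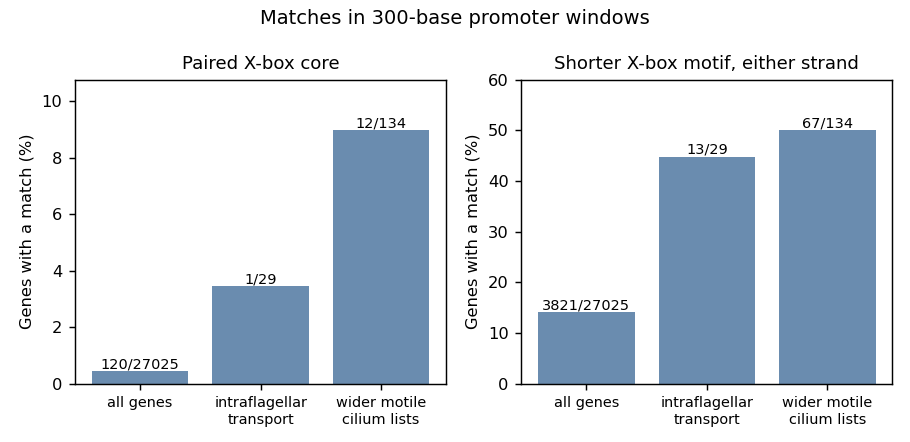
Share of genes (%, vertical axes) whose promoter window holds a paired X-box core (left) or the shorter motif GTTGCC on either strand (right), with 1 bar each for all genes, genes of intraflagellar transport and the wider motile cilium genes, and labels giving genes with the motif out of genes with a window. The paired core stands in 0.444% of all genes and 8.96% of the wider set.

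The libraries were shallow for genes of a rare cell type. Totals ranged from 229766 to 1124963 counts, of which the ribosomal RNA precursor Rn45s took 21.8% to 87.0%, so 45177 to 473254 counts were left for all other genes. Levels are given as CPM, the counts of a gene relative to the library size after scaling by edgeR's TMM method, Rn45s included. In FO3 and CO1 (mice are named by group and number) 3 counts already amount to 15.1 and 15.6 CPM, against 2.33 CPM in FO2. FO2 and CO5 stood apart from the rest, since the nuclear RNA Malat1 made up 8.53% and 6.15% of their counts outside Rn45s and at most 1.05% in the other 8 mice. They belong to different diets, and results that rest on them are also given without them. CO4 had the least Rn45s. The libraries were made with either of 2 kits, and which mouse had which kit is not given in the sources used here. In bulk lung, fewer ciliated cells and less RNA per ciliated cell cannot be told apart.

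The 8 genes together received 447 counts over the 10 mice, and Tppp3 alone took 63.8% of them. Dnah5, a heavy chain of the outer dynein arm and a frequent site of mutation in primary ciliary dyskinesia, had no count in any mouse. It lies at chr15:28203752-28472052, and all 890 gene symbols placed on chromosome 15, among them 741 protein-coding genes, were listed at 0 in all 10 mice. On the other autosomes and X, 21.2% to 46.7% of the protein-coding genes were at 0 in all mice, and on Y, in these female mice, 97.6%. The 0 of Dnah5 therefore says nothing about its expression in these lungs, and the cause of the empty chromosome was not tested. The same holds for 9 genes of the wider set below and for Ift27 of intraflagellar transport. It also holds for the basal cell keratin Krt5 and the alveolar type 1 gene Aqp5.

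**Figure D2:**
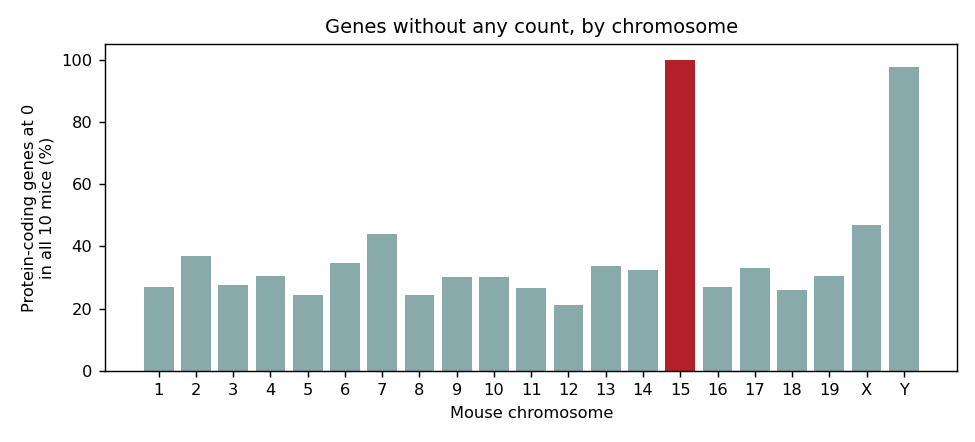
Protein-coding genes without any count in all 10 mice, as a percentage of the protein-coding genes of each mouse chromosome in the table (vertical axis), with chromosomes in order along the horizontal axis. The bar of chromosome 15, which carries Dnah5, is at 100, while the other autosomes and X lie between 21.2% and 46.7%.

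Foxj1 (chr11:116330704-116335399 on the minus strand of GRCm38, 3 exons with 2623 bases) had 35 counts. Its level was 1.15, 3.89, 20.1, 13.7 and 9.11 CPM in FO1 to FO5, and 5.19, 0, 6.49, 6.31 and 1.35 CPM in CO1 to CO5. The 3 highest values were all of FO mice, but FO1 and FO2 lay within the range of the CO group, and the 20.1 CPM of FO3 rest on 4 counts. Mean levels were 9.59 ± 7.61 CPM (SD, n = 5) in FO and 3.87 ± 3.00 in CO. The log2 difference, FO minus CO, was 0.88 ± 0.71 (SE) with a 95% interval from -0.50 to 2.27, and it did not pass the edgeR quasi-likelihood test (p = 0.212, Benjamini-Hochberg adjusted p = 0.905) or an exact permutation test over the mice (p = 0.175, two-sided). The interval thus reached from a lower level in FO to one 4.81-fold higher.

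Tppp3 (chr8:105467493-105471526, minus strand, 5 exons with 1848 bases) encodes a tubulin-binding protein that bundles microtubules and is abundant in ciliated cells. It was the only one of the genes with more than 3 counts in every mouse, with 285 counts in all. Levels were 48.1, 26.4, 30.2, 43.5 and 30.4 CPM in FO1 to FO5, and 41.5, 30.5, 56.3, 89.4 and 43.1 CPM in CO1 to CO5. The groups overlapped from 30.5 to 48.1 CPM, and the 2 highest values were those of CO3 and CO4. The means of 35.7 ± 9.49 CPM (SD, n = 5) in FO and 52.2 ± 22.7 in CO gave a log2 difference of -0.59 ± 0.34 (SE), with a 95% interval from -1.24 to 0.07. Neither edgeR (p = 0.0806, adjusted p = 0.905), DESeq2 (p = 0.0856) nor the exact permutation test (p = 0.190) called it at 0.05. With the library size alone as scaling, which moved the median log2 difference of all genes to -0.43, the value became -1.29, and with 1 surrogate variable it was -0.67, and under these settings Tppp3 passed the unadjusted threshold. Without CO4, the mouse with the highest level, the log2 difference was -0.24, and with limma-voom it was -0.44, neither of them called.

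Dynlrb2 (chr8:116504974-116515915, plus strand, 4 exons with 556 bases) encodes a roadblock-type light chain of dynein, and had 39 counts. It was at 3.44, 3.89, 0, 3.73 and 12.2 CPM in FO1 to FO5, and at 0, 8.73, 10.8, 16.8 and 1.35 CPM in CO1 to CO5. Each group held 1 mouse without a count and a value above 12 CPM, so the groups overlapped over nearly their whole range. The log2 difference was -0.92 ± 0.66 (SE), from means of 4.64 ± 4.49 CPM (SD, n = 5) and 7.55 ± 6.96 (edgeR p = 0.165, exact permutation p = 0.436). Without CO4, which held 16 of the 24 CO counts, it was -0.18.

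Rsph1 (chr17:31255019-31277383, minus strand, 10 exons with 1372 bases) encodes a head protein of the radial spokes, which link the outer doublets to the central pair. Its 34 counts gave 2.29, 3.89, 10.1, 6.22 and 3.04 CPM in FO1 to FO5, and 10.4, 0, 8.66, 5.26 and 10.8 CPM in CO1 to CO5. The only mouse without a count, CO2, was in the group with the higher mean. Means were 5.10 ± 3.14 CPM (SD, n = 5) in FO and 7.01 ± 4.48 in CO, with a log2 difference of -0.69 ± 0.69 (SE, edgeR p = 0.319, exact permutation p = 0.444).

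Hydin (chr8:110266977-110610253, plus strand, 88 exons with 18037 bases) encodes a very large protein of the central pair, whose loss in mice gives hydrocephalus. It had 35 counts and was at 0, 6.998, 15.1, 6.22 and 0 CPM in FO1 to FO5, and at 0, 4.36, 10.8, 2.10 and 13.5 CPM in CO1 to CO5. Mice without a count occurred in both groups, and FO2 and CO5, the Malat1-rich libraries, held 9 and 10 of the counts. The log2 difference of -0.49 ± 0.68 (SE, edgeR p = 0.471, exact permutation p = 0.897) turned to 0.09 when CO5 was left out. An antisense gene, Gm26832, which is not in the table, shares 237 exon bases with Hydin, and the strand setting of the counting is not stated, so reads of both could not be separated there.

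Tekt1 and Tekt4 encode tektins, filament proteins that lie inside the doublet microtubules. Tekt1 (chr11:72344722-72362442, minus strand, 10 exons with 1622 bases) had 14 counts, with at most 3 in any mouse, and lay between 0 and 10.1 CPM in FO and between 0 and 8.73 CPM in CO. Its log2 difference of 0.34 ± 0.96 (SE, edgeR p = 0.719, exact permutation p = 0.619) changed sign with library size alone, with limma-voom and without FO3, so no direction can be given. Tekt4 (chr17:25454615-25476602, plus strand, 8 exons with 1997 bases) had 5 counts, in FO2, FO4, CO4 and CO5, and 6 of the 10 mice had none. The log2 difference of Tekt4 was -0.75 ± 1.13 (SE, edgeR p = 0.509, exact permutation p = 0.564). Without CO4 it was -0.03. Neither tektin had more than 3 counts in any mouse.

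**Figure D3:**
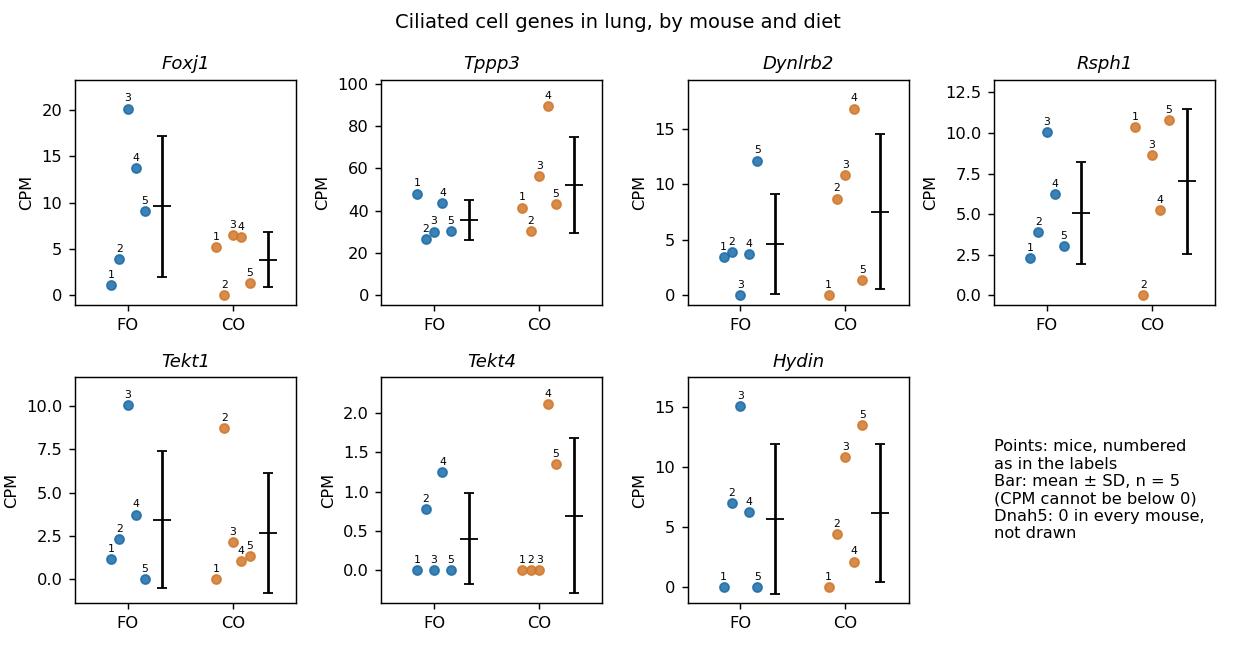
Level in CPM (vertical axis) of each gene with counts, with 1 point per mouse numbered as in the labels (FO blue, CO orange) and the mean ± SD of each group beside it, n = 5. The groups overlap for every gene. For Foxj1, Tekt1 and Hydin the highest value is that of FO3, on 4, 2 and 3 counts. For Tppp3, Dynlrb2, Rsph1 and Tekt4 it is that of a CO mouse.

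Of the 7 genes with counts, none passed the test at an unadjusted p under 0.05 with edgeR, with DESeq2 or after adjustment. Of all 14161 genes with any count, 4.15% passed the edgeR test (587 genes), 2.58% with a higher and 1.57% with a lower level in FO. Higher levels thus made up 62.2% of the calls, but 14.7% with library size alone, 46.4% with limma-voom and 35.9% with 1 surrogate variable. DESeq2 called 0.975% of genes, and 0.00706% (1 gene) passed in edgeR after adjustment. Among the 10264 genes whose total counts lay in the range of these 7, the share was 4.04%. Adjusted p-values ran from 0.905 to 0.995. Exact permutation p-values ran from 0.175 to 0.897, where 5 mice against 5 could have given 0.0079. For none of the 7 did the groups fail to overlap, against 0.424% of all genes. The log2 difference was above 0 for Foxj1 and Tekt1 and below 0 for Tppp3, Dynlrb2, Rsph1, Tekt4 and Hydin, with a median of -0.59 beside 0.05 over all genes. These standard errors of 0.34 to 1.13 leave wide intervals, so the absence of a call does not show that the diets gave the same level. Only Tppp3 had enough counts to pass edgeR's default filter, under which 2.91% of 2438 genes were called and Tppp3 was not.

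**Figure D4:**
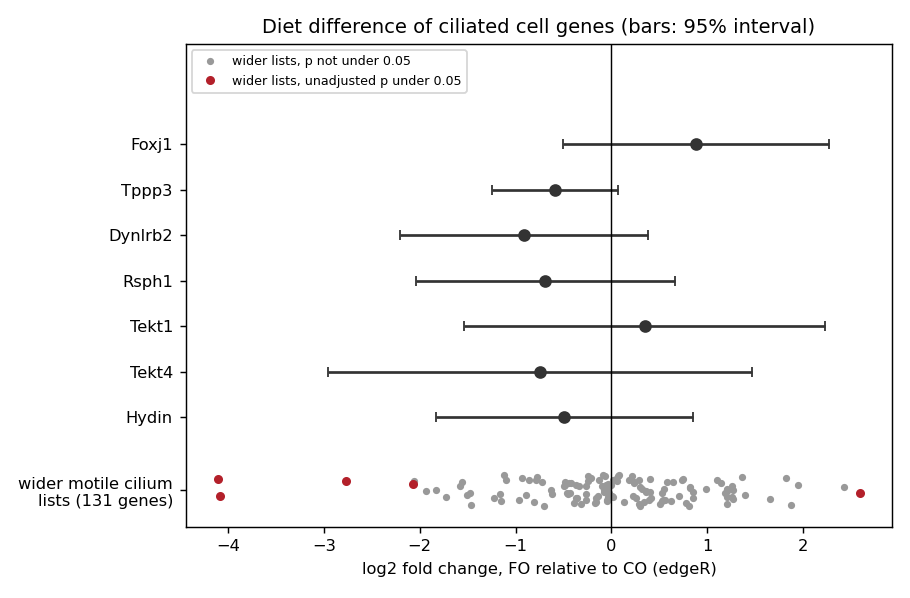
Log2 difference between diets (FO relative to CO, horizontal axis) of each gene with counts, as a point with its 95% interval from the edgeR quasi-likelihood fit on 10 mice, and at the bottom 1 point for each of the 131 tested genes of a wider motile cilium set, red where the unadjusted p was under 0.05. All 7 intervals include 0, and that of Tppp3, from -1.24 to 0.07, is the narrowest.

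To compare the genes with each other, CPM were divided by the exon length in kilobases. On that scale, over all 10 mice, Tppp3 was highest with 23.8 ± 10.1 (SD) CPM per kilobase, followed by Dynlrb2 with 10.96 ± 10.3, Rsph1 with 4.41 ± 2.76, Foxj1 with 2.57 ± 2.38, Tekt1 with 1.88 ± 2.18, Hydin with 0.327 ± 0.314 and Tekt4 with 0.274 ± 0.388. Tppp3 lay above Dynlrb2 in 9 of 10 mice, and Tekt1 above Hydin in 8 of 10. Neighbours between these were closer. Dynlrb2 exceeded Rsph1 in 7 mice, Rsph1 exceeded Foxj1 in 6 and Foxj1 exceeded Tekt1 in 7. Hydin exceeded Tekt4 in 4, and both were at 0 in FO1, FO5 and CO1. The ranges of mean ± SD overlapped for all neighbours in this order, while that of Tppp3 lay clear of those of Rsph1 and the genes below it.

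Summed over the 8 genes, the level was 56.1, 48.2, 85.5, 78.4 and 54.7 CPM in FO1 to FO5, and 57.1, 52.4, 95.2, 123 and 72.7 CPM in CO1 to CO5. The FO values lay within the CO range except for that of FO2, the lowest of all mice. The ratio of the group means, 64.6 ± 16.3 CPM in FO (SD, n = 5) over 80.1 ± 29.3 in CO, was -0.31 on the log2 scale, and without Tppp3 it was 0.05, from means of 28.9 ± 17.6 and 27.9 ± 9.32. Without FO2 and CO5 the log2 ratio of all 8 was -0.23. As CPM of the counts outside Rn45s, without TMM scaling, the 8 genes ranged from 131 in FO2 (95% exact binomial interval 100.4 to 168, counting error only) to 417 in CO4 (345 to 500). These are the lowest and the highest of the 10 mice. The log2 ratio between the diets was not tested. The SD of the log2 summed level within diets was 0.44, which describes the spread of single mice and not the error of the ratio.

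Marker genes of lung were present in all libraries, with Sftpc, the surfactant protein of alveolar type 2 cells, at 857.7 to 1701 CPM in FO and 497.9 to 1499 in CO. Club cell genes, all 14 of them with counts, summed to 1624 to 2675 CPM in FO and 1384 to 3200 in CO, and Scgb1a1, the main club cell secretory protein, had a median of 885 CPM in FO and 1388 in CO. Of 6 basal cell genes, Krt5, Trp63 and Krt14 were at 0 and the others had 10 counts in all. Alveolar type 1 genes, 8 of 9 with counts, summed to 789.5 to 1502 CPM in FO and to 819.5 to 3151 in CO, where the highest value was that of CO4, the mouse with the highest sum of ciliated cell genes. All 10 neutrophil genes had counts. Their sum was higher in every FO mouse (58.3 to 316 CPM) than in any CO mouse (25.9 to 49.4). Of its 626 counts S100a9 and S100a8 held 275 and 218, so the sum mostly reflects these 2 genes. S100a9 was at 23.3 to 158 CPM in FO and 4.36 to 18.9 in CO. For S100a8 the groups overlapped (21 to 110 CPM in FO, 10.4 to 26.2 in CO). Of all genes, 0.424% had groups that did not overlap. The study also lists both among its genes of interest. The part of these cell types in the values of the ciliated cell genes was not tested.

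A wider set of motile cilium genes, listed by role and without the 8, had 156 genes in the table, of which 25 were at 0 in every mouse, 9 of those on chromosome 15. Of the 131 tested, 1 was called higher and 4 lower in FO (3.82%, beside 4.15% of all genes), and none after adjustment. Their median log2 difference was -0.02, with 64 above and 67 below 0. Unlike that set, the role lists that follow also hold the 7 tested genes of the 8. Foxj1 is counted as a regulator, Rsph1 with the radial spoke and Hydin with the central pair. Tppp3, Tekt1 and Tekt4 are counted with the tektins, and Dynlrb2 with other genes of ciliated cells. No gene was called among 7 tested for transcription factors and regulators of multiciliated cells (median 0.07), 9 for the outer dynein arm (0.01), 8 for dynein assembly (-0.24), 12 for the radial spoke (0.28) and 9 for the central pair (0.06). In the inner dynein arm list 1 of 12 was higher in FO (median -0.11), and in the nexin-dynein regulatory complex, which links the doublets and controls the motors, 1 of 12 was lower (0.07). Among tektins and other proteins inside the doublets 1 of 29 was lower (-0.06), and among other genes of ciliated cells 2 of 40 were lower (-0.12). Intraflagellar transport, which builds all cilia including the primary cilia of other cells, had 1 of 33 lower (median -0.15), and its sum was 407 to 580 CPM in FO and 409.7 to 789 in CO. That gene, Ttc30a1, was named after its values had been seen and rests on 3 counts, all in CO mice.

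The 5 called genes of the wider set were all sparse. Lrrc48, a subunit of the nexin-dynein regulatory complex, had no count in FO1 to FO5 and 0, 1, 2, 5 and 1 counts in CO1 to CO5 (edgeR p = 0.00113, exact permutation p = 0.0476). Its pooled CO level was 4.06 times a floor of 3 counts over the FO group. Fam216b, a gene known from ciliated cells, had none in FO and 0, 2, 1, 1 and 4 in CO (edgeR p = 0.00131, exact permutation p = 0.0476). Its pooled CO level was 3.61 times that floor. These ratios leave out the counting error of the CO values, so they are not lower limits. Lrrc48 and Fam216b were called under all 19 alternatives in which they were tested, DESeq2 included. Dnah6, a heavy chain of the inner dynein arm, had 5, 16, 0, 2 and 1 counts in FO and 0, 1, 0, 0 and 1 in CO, a log2 difference of 2.60 ± 0.98 (SE, edgeR p = 0.00800, exact permutation p = 0.159). It was no longer called without FO2 (log2 difference 1.82). Tekt5, another tektin, fell by 2.77 ± 1.13 on the log2 scale in FO, with 1 count there and 9 in CO (edgeR p = 0.0145, exact permutation p = 0.167), and Ccdc113, a cilium base and axoneme protein, fell by 2.07 ± 0.86, with 5 counts against 16 (edgeR p = 0.0168, exact permutation p = 0.238). Tekt5 also lost its call without FO2 (log2 difference -2.30), and both it and Dnah6 were called in 14 of 19 alternatives. Ccdc113 was called in 16 of 19, and not with DESeq2, with the replicate block or without CO3, which held 9 of its 16 CO counts (log2 difference -1.04). All adjusted p-values of these genes were at least 0.824.

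The most abundant gene of the wider set was Sec14l3, which encodes a lipid-binding protein of the SEC14 family found in ciliated airway cells. It had 3847 counts, more than all other genes of the set together (3221). Its level was 492, 682, 327, 435 and 477 CPM in FO1 to FO5, and 405, 393, 472, 1009 and 839 CPM in CO1 to CO5. CO4 and CO5 lay above all FO mice, and the other CO mice lay within the FO range. The log2 difference of -0.37 ± 0.28 (SE) was not called (edgeR p = 0.178, exact permutation p = 0.349). Dnah8, an outer arm heavy chain, ranged from 11.2 to 20.2 CPM in FO and from 0 to 17.5 in CO, with a log2 difference of 0.99 ± 0.53 (edgeR p = 0.0621, adjusted p = 0.905, exact permutation p = 0.0397). Besides Dnah6, Sec14l3 and Dnah8, the genes with most counts in their lists had log2 differences from -0.64 for Dyx1c1, a dynein assembly factor, to 0.54 for Rsph9, a radial spoke head protein, and none of these was called.

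Much of the spread of the wider set followed the 2 Malat1-rich libraries. Without Sec14l3 the set summed to 845 CPM in FO2 and 782 in CO5, and to 206 to 497 CPM in the other 8 mice. Among 57 cilium genes with at least 20 counts, those chosen by name included, 46 were higher in FO2 and CO5 than in the other mice, with a median log2 ratio (pseudocount 0.5 CPM) of 1.08, beside 0.16 over 8140 genes. The ratio was larger for genes with more exon bases, with a Spearman correlation of 0.51 across 56 cilium genes and 0.32 across 8099 genes, given as a description since genes of the same libraries are not independent. The 28 cilium genes with more than the median of 4165 exon bases had a median log2 ratio of 1.5 and the 28 shorter ones 0.53. The part of the Malat1 share or of the library kit in this was not tested. Left out alone, each of these mice moved the calls between diets. Without FO2, 15 of 126 genes were called, all lower in FO (11.9%, beside 5.71% of all genes, median log2 difference -0.38, all genes 0.004). Without CO5, 13 of 130 were called (10%, beside 5.31% of all genes), with 9 higher and 4 lower (median 0.27, all genes 0.14). Without both, 7 of 125 were called (5.6%, beside 4.15% of all 13399 genes tested).

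**Figure D5:**
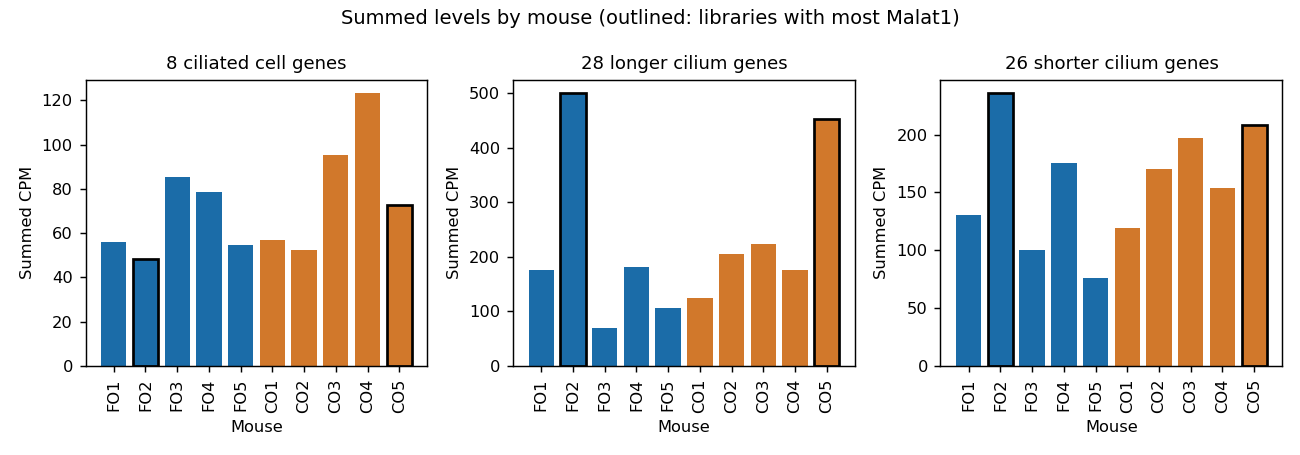
Summed level in CPM (vertical axes) in each mouse (horizontal axes, 1 bar per mouse, FO blue, CO orange, FO2 and CO5 outlined) of the 8 genes chosen by name, of 28 longer cilium genes and of 26 shorter ones, Sec14l3 and Tppp3 not included. The diets overlap in all panels, and for the longer genes FO2 and CO5 stand at 499.2 and 452.5 CPM, above the other mice at 70.4 to 222.9.

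How far the genes varied together could not be judged at this depth. Pearson correlations of each gene's log2 CPM with the sum of the others, over 10 mice that share depth and library type with every gene, were 0.49 for Tekt4, 0.32 for Rsph1, 0.18 for Foxj1, 0.11 for Hydin, 0.06 for Tppp3, 0.02 for Dynlrb2 and -0.09 for Tekt1. At a few counts per mouse such values are no finding. Among 5447 genes with at least 50 counts, those most like the sum of the 8 genes were Eva1b (r = 0.93), Nfib (0.92), Bcl6b (0.86), Lmo2 (0.84), Arfip1 (0.83), Pdpn (0.82), S100a11 (0.82), Gmfb (0.81) and Ate1 (0.80), over 10 mice. None of these is in the cilium lists. Leaving out 1 mouse lowered r in some of them, and the lowest value per gene ran from 0.64 for S100a11 to 0.92 for Eva1b. For the 20 genes of the wider cilium set with enough counts, r with the same sum ran from -0.46 to 0.32, the highest being that of Sec14l3, with a median of -0.05 beside 0.06 over all genes compared. The sum of the 8 genes, which follows Tppp3, had r = -0.29 with the club cell sum and 0.48 with the alveolar type 1 sum.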

How the data were processed

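Lung RNA of 10 mice was sequenced by the authors, who aligned single-end reads to mm10 with STAR 2.4.0f1, sorted them with SAMtools 0.1.19 and deposited raw counts per gene symbol from htseq-count. The version of HTSeq, the annotation and the strand setting are not given in the sources used here. Diets were taken from the sample labels, and each mouse is 1 sample. All 14161 genes with any count entered an edgeR fit (version 4.0.16, R 4.3.3; TMM scaling, quasi-likelihood test, diet as the only term), at an unadjusted p under 0.05 as in the study's methods, with Benjamini-Hochberg adjusted values over all genes. CPM of single genes were compared with two-sided exact permutation tests (scipy 1.17.1). The floor of a group was set at 3 counts, and likeness used log2 CPM with a prior count of 2. Gene positions and exon lengths are those of GENCODE vM21 (GRCm38), promoters those of RefSeq, and 23875 of the 24059 symbols had a RefSeq position.

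The genes and lists were chosen with earlier results of these data known. From the wider lists, the text names genes with an unadjusted p under 0.05 (at most 10) and, of the 2 genes of each list with most counts, those at the extremes. It also names genes from the 10 most like the sum of the 8, of which 1 is not reported here, and defining markers of other cell types. The alternatives covered DESeq2 1.42.0, the default filter of edgeR, DESeq2's scaling factors, library size alone and library size without Rn45s. They also covered robust estimation, limma-voom (limma 3.58.1) with quality weights, a block for the replicate number and 1 surrogate variable from sva 3.50.0. Further alternatives left out every mouse singly, or FO2 with CO5. The default filter asks for 15 counts in total and, in enough mice, a level equal to 10 counts at the median library size. The fits were also run on simulated data with known changes. These changes were placed only in genes with at least 50 counts. Among the 8 genes only Tppp3 has that many, so the simulation does not cover the others. Same-numbered mice are different animals.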

Additional observations from a re-analysis of the deposited data

Results flagged for a closer look

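Of 18 groups of 5 values examined, those of the 7 genes with counts and of summed levels, 1 held a mouse far from the rest by Dixon's criterion at the 95% level, a share near the 1 in 20 groups that chance gives. It was Tekt1 in the CO group, where CO2 stood at 8.73 CPM and the other CO mice at 0 to 2.16 CPM. The gap took a share of 0.752 of the group's range, above the critical value of 0.71 for 5 samples. The value rests on 2 counts.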

How the results depend on the processing

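The edgeR fit called 0 of the ciliated cell genes, and 18 of 20 alternatives did too. Library size alone and 1 surrogate variable each called 1, Tppp3. The log2 differences of Foxj1, Tppp3, Dynlrb2, Rsph1 and Tekt4 kept their sign in all alternatives run, but not their size. Without CO4 the value of Dynlrb2 went from -0.92 to -0.18, of Tekt4 from -0.75 to -0.03 and of Tppp3 from -0.59 to -0.24, and that of Foxj1 was 0.27 with library size alone. With each mouse left out in turn, Foxj1 ran from 0.53 to 1.27, Tppp3 from -0.73 to -0.24, Dynlrb2 from -1.27 to -0.18, Rsph1 from -0.84 to -0.43 and Tekt4 from -1.17 to -0.03. That of Tekt1 changed sign with library size alone (-0.058), limma-voom (-0.19) and without FO3 (-0.005), and that of Hydin without CO5 (0.093). With each mouse left out in turn Tekt1 and Hydin ran from -0.005 to 1.04 and from -0.83 to 0.09. The summed log2 ratio was -1.10 with library size alone, and -0.41 to -0.08 with single mice left out. Of all genes, 71 were called with the default filter, 138 with DESeq2 and 183 with the replicate block, and 535 to 782 with single mice left out, against 587. In the wider cilium set the count of 5 became 0 with the default filter, under which 1 gene was tested, 2 with DESeq2 (1.53%, beside 0.975% of all genes), 9 with limma-voom (6.87%, beside 3.3%), 10 with 1 surrogate variable (7.63%, beside 5.97%) and 3 with the replicate block (2.29%, beside 1.29%). It was 4 to 15 with single mice left out, among them 9 without FO1 (6.92%, beside 3.83%) or FO4 (6.98%, beside 3.91%) and 8 without CO4 (6.15%, beside 4.01%). The cause of these shifts was not tested. The replicate block changed no call among the 8 genes. Same-numbered mice did not deviate together (mean correlation -0.12 over 5 pairs, other pairs 0.03), and 0 of 5 FO mice were closest to their own number. Depth limits all of this, since 3 counts amount to 2.33 to 15.6 CPM.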
